A study of Mus musculus with 2 samples.

Results

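The 9 genes described here code for the core of insulin signalling in the cell: the receptor (Insr), its adaptors (Irs1 and Irs2), subunits of phosphatidylinositol 3-kinase (Pik3ca and Pik3r1), the kinase Akt2, and regulators of the growth kinase mTOR (Rictor, Tsc2 and Rheb). They were taken by symbol from a list of genomic regions enriched for the transcription factor E2F1, and 8 of them were named for at least 1 region. Together they had 9 of the 5667 listed peaks, in a list that named 5594 genes in all. The list comes from primary hepatocytes, the metabolic cells that make up most of the liver, of C57Bl6J mice. All cells carried an adenovirus for E2F1 (Ad-E2F1) for 36 h before fixation, so the values describe cells with added E2F1, and no cells without the vector were analysed here. In chromatin immunoprecipitation with sequencing (ChIP-seq), DNA bound by a protein is pulled down with an antibody and read. The ChIP used the anti-E2F1 antibody c20 and its reference was input chromatin with no antibody, with 1 record of each. The series text describes 2 replicates, each combining 2 ChIPs, but the table of peaks gives no values per replicate. No value below therefore has a replicate error, and no test between samples was possible. The list holds no expression values, so the labelled cell type was not checked against hepatocyte markers.

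When insulin binds its receptor, the receptor kinase phosphorylates the IRS adaptors, which recruit and activate phosphatidylinositol 3-kinase at the membrane. The lipid it makes brings Akt to its activating kinases, one of which is the mTOR complex that contains Rictor (mTORC2). Active Akt phosphorylates Tsc2 and so relieves its hold on the small GTPase Rheb, which switches on the other mTOR complex (mTORC1) and protein synthesis. In hepatocytes this pathway restrains glucose output and favours glycogen and fat synthesis. E2F1 is best known as an activator of genes for entry into S phase, and its family binds a short GC-rich element after a run of T.

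A promoter peak is taken below as one whose summit is at most 1000 bp from a gene's transcription start (TSS) as the authors give it. Of the 9 genes, 6 had a promoter peak (Insr, Irs1, Irs2, Pik3r1, Rictor and Tsc2), against 13.1% of all protein-coding genes. Pik3ca and Rheb had peaks deep inside the gene only, and Akt2 had no listed peak. Counted by any listed peak, the 9 genes had 8, against 24.7% of all protein-coding genes. The 9 genes were proposed with results of this list in view, so these counts describe them and carry no test. By fold enrichment over input the 6 promoter genes were of ordinary strength, with a median of 6.35. The median was 6.53 over all 2866 protein-coding genes with a promoter peak. By the other measures the 6 peaks were weaker, with a median of 147.5 mapped reads beside 169 for all 2612 promoter peaks. Their median false discovery rate was 1.245%, beside 0.65%.

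Promoter sequences were available in the RefSeq table (assembly GRCm38.p6) for 8 of the 9 genes, all but Insr. Each window runs from 250 bases before a RefSeq transcript start to 50 after it. The E2F element was searched on both strands as TTTCCCGC, TTTGGCGC, TTTCGCGC or TTTGCCGC, and in a shorter form without the first T, which any match of the longer form also contains. The longer form was present in the window of Irs2 alone among these 8 genes, against 2.60% of all 27025 genes in the table. The shorter form was present at Irs2 and Rictor, against 10.9% of all genes in the table. Among the 2355 protein-coding genes with a promoter peak and a window in the table, 9.47% held the longer form and 30.4% the shorter. Of the 8 genes above, Pik3ca, Akt2 and Rheb had no promoter peak, so these last shares cover an unlike set. The 4 windows below are shown because they carry a match or share a peak. Capitals mark matches of either form, and a match on the other strand appears as its reverse complement. Each window is printed on the strand of its gene.

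Irs2, chr8:11008880-11009179 (GRCm38.p6, minus strand): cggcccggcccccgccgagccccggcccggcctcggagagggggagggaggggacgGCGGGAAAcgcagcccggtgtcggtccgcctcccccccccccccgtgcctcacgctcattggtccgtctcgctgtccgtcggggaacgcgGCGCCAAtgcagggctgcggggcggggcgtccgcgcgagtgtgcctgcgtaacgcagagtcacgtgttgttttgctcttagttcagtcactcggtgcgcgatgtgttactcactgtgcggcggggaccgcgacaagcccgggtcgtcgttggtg
Rictor, chr15:6708131-6708430 (GRCm38.p6, plus strand): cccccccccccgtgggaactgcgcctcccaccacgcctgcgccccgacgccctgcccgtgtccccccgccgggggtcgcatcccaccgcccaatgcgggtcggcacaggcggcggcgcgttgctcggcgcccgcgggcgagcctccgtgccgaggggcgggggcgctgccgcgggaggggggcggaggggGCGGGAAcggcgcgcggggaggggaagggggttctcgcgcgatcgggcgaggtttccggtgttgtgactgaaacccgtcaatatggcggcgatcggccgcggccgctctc
Tsc2, chr17:24632578-24632877 (GRCm38.p6, minus strand): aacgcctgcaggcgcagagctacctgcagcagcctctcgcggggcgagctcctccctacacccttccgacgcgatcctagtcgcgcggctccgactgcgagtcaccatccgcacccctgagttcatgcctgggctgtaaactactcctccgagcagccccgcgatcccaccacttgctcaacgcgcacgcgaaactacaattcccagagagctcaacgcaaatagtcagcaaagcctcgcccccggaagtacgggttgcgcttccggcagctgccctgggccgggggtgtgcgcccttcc
Nthl1, chr17:24632432-24632731 (GRCm38.p6, plus strand): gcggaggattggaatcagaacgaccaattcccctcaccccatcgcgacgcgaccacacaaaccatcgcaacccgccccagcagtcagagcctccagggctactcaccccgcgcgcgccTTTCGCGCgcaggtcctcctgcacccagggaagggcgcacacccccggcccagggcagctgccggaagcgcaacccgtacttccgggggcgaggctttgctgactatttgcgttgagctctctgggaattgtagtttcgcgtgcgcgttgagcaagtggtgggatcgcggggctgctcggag

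In the Irs2 window the longer form, TTTCCCGC, lay on the opposite strand with its far end 194 bases before the start, and TTGGCGC lay on the opposite strand too, at 104 bases. In the Rictor window TTCCCGC lay on the opposite strand at 60 bases. The Tsc2 window held neither form. Nthl1, the DNA glycosylase gene that shares the Tsc2 peak, is divergent from Tsc2, with their starts 55 bp apart and 154 bp of their windows in common. The part of its window outside the overlap held TTTCGCGC on the gene's own strand, 132 to 125 bases before the Nthl1 start and 70 bases inside Tsc2. No match in the windows of Irs1, Pik3ca, Pik3r1, Akt2 and Rheb says only that these letters are not within them.

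Peak positions are on the mm9 build and were not placed on these sequences, so distances are given from each source's own TSS. In 5 of the 6 promoter genes the 301 bp window around the summit did not reach the TSS given by the authors. A gene can have other annotated starts, and distances to those were not measured. These windows ended 278 bp (Rictor), 464 bp (Pik3r1), 510 bp (Irs2) and 703 bp (Insr) upstream of the TSS and 325 bp (Irs1) downstream of it. Only the window at Tsc2 held a TSS, while 1400 of all 2612 promoter peaks (53.6%) did. A window edge 250 bp or more from the TSS, a distance chosen after these values were seen, was found in 5 of the 6 and in 16.9% of all promoter peaks.

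**Figure D1:**
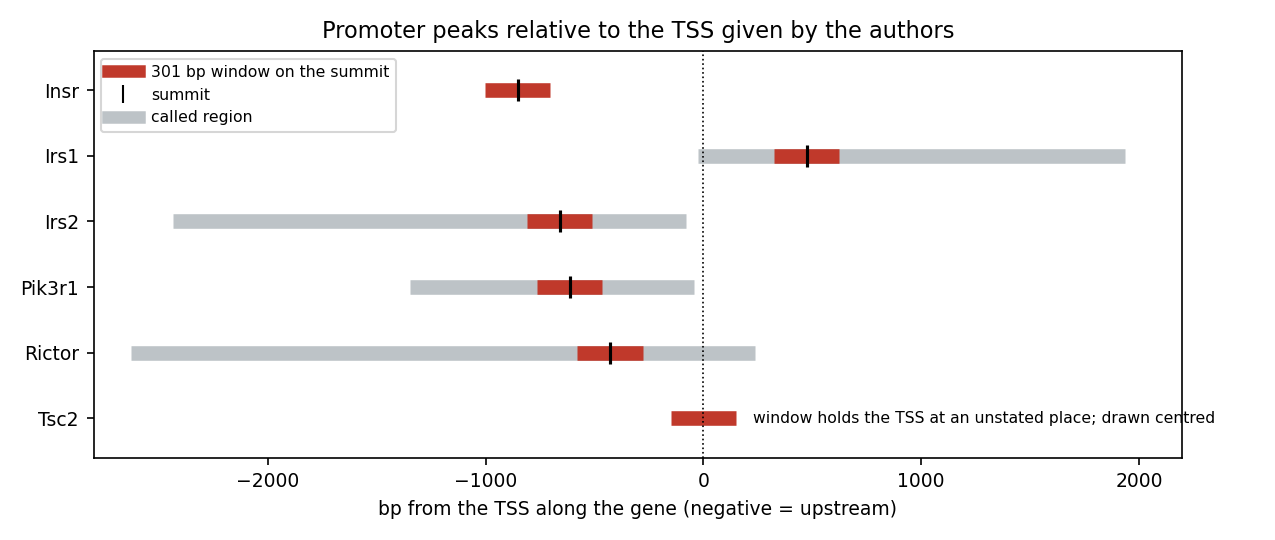
Position of the 6 promoter peaks along each gene, in bp from the TSS given by the authors, with the 301 bp summit window in red, the summit as a black tick and the called region in grey. The summits at Insr, Irs2, Pik3r1 and Rictor lie upstream and that at Irs1 downstream. At Tsc2 the window holds the TSS at an unstated place, so it is drawn centred and without a tick. The called regions at Insr and Tsc2 are not drawn because their place relative to the TSS was not derived.

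Insr codes for the insulin receptor, the tyrosine kinase at the top of the pathway. Its peak (ENSMUSG00000005534) had its window on chromosome 8 from 3280321 to 3280621 (mm9) and its summit 853 bp upstream of the TSS. The peak held 179 tags, the caller's word for mapped reads, in a called region of 1990 bp. An exact 95% Poisson interval for this count, which covers counting error only, ran from 154 to 207. Its fold enrichment over input, the authors' value as for all peaks here, was 6.97, and its false discovery rate was 0.47%. This fold was higher than that of 73.1% of all listed peaks and of 55.6% of promoter peaks, with ties counted by their midpoint. The nearest other listed peak lay 219874 bp away, at Mcoln1. Of the promoter peaks of the 9 genes, that at Insr had the summit farthest from the TSS, and a limit of 500 bp in place of 1000 bp would leave it out.

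The adaptors Irs1 and Irs2 carry the signal from the receptor to phosphatidylinositol 3-kinase, and both had promoter peaks. Among promoter peaks their folds were at the percentiles 30.3 (Irs1) and 41.5 (Irs2). By tags they were at the percentiles 22.2 (Irs1) and 62.8 (Irs2) of all listed peaks. At Irs1 (ENSMUSG00000055980) the window lay on chromosome 1 from 82287366 to 82287666, with the summit 475 bp inside the gene. Its called region, from 26 bp upstream to 1934 bp downstream of the TSS, lay almost wholly within the gene. It held 94 tags (95% interval 76.0 to 115) with a fold of 5.2 and a false discovery rate of 4.5%, the highest rate among the 9 peaks. At Irs2 (ENSMUSG00000038894) the window lay on chromosome 8 from 11008969 to 11009269, with the summit 660 bp upstream. Here the called region ran from 2435 to 78 bp upstream and did not reach the TSS. The Irs2 peak held 182 tags (157 to 210) with a fold of 5.86 and a false discovery rate of 0.08%, the lowest among the 9 peaks. Tag counts thus separated the adaptors beyond counting error, while their folds differed by less than 1 unit and have no error attached. The regions differ in length, and per kb of region Irs2 had 77.2 tags and Irs1 47.9. In position the adaptors lay on opposite sides of their start sites, with Irs2 upstream and Irs1 downstream. The RefSeq and the authors' starts of Irs2 may differ, and match and peak were not placed on the same build. Where the TTTCCCGC match printed above lies relative to the Irs2 called region and its summit was therefore not determined. The nearest other listed peak was 25684 bp from that of Irs1 and 270512 bp from that of Irs2.

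Phosphatidylinositol 3-kinase consists of a catalytic and a regulatory subunit, and only the regulatory gene had a promoter peak. Pik3r1 (ENSMUSG00000041417), the gene of the regulatory subunit p85 alpha, had its window on chromosome 13 from 102538637 to 102538937 and its summit 614 bp upstream. This was the weakest of the 6 promoter peaks by fold, at 4.19, above 12.6% of promoter peaks. It held 116 tags (95.9 to 139) in 1304 bp, with a false discovery rate of 2.02%. The called region ran from 1348 to 45 bp upstream of the TSS. It stood alone, with the next listed peak 992961 bp away, at Cenph.  Pik3ca (ENSMUSG00000027665), the gene of the catalytic subunit p110 alpha, had its window on chromosome 3 from 32347186 to 32347486, 50593 bp inside the gene. That peak held 174 tags (149 to 202) over 2830 bp, with a fold of 3.88 and a false discovery rate of 1.09%. The Pik3ca fold was the lowest of the 9 peaks. It was at the percentile 48.6 of listed peaks inside genes, whose median fold was 3.91.

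Akt2, the main Akt form of insulin signalling in liver, had no row in the list. The list starts at a score of 50 (the negative log10 of MACS' p-value times 10), and 13240 serial numbers between 2 and 18908 do not occur in it. Absence from it does not show whether E2F1 was bound. RefSeq gives Akt2 4 promoter windows, with at most 58.7% of bases G or C and at most 12 CpG pairs. At the upstream Pik3r1 start and at the starts of Irs1, Irs2, Rictor and Tsc2 the share was 65.0% to 78.3%, with 28 to 47 CpG pairs. The second Pik3r1 start, farther down the gene, had 43.7% and 6 pairs. Over all 32851 windows of the table the median was 52.7% and 7 pairs. Pik3ca (63.3%, 20 pairs) and Rheb (70.0%, 47 pairs), which lacked a promoter peak, were also above that median. Of the Akt2 windows, those with 54.3% and 58.7% were above the median share. The Akt2 window with 12 pairs was above the median number of pairs.

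Rictor, the subunit that defines mTORC2, had the strongest peak of the 9 genes by fold, tags, pileup height and score. Its peak (ENSMUSG00000050310) had its window on chromosome 15 from 6657802 to 6658102, with the summit 428 bp upstream of the TSS. It held 363 tags (327 to 402), with a fold of 9.57, a pileup height of 112 and a false discovery rate of 0.2%. The interval of its tag count lay above those of the other 8 peaks. By fold the peak ranked 781 of 5667, above 86.2% of all peaks and 76.5% of promoter peaks, and by tags it was above 95.4% of all peaks. The called region was the longest of the 9, at 2868 bp, and ran from 2628 bp upstream to 239 bp downstream, across the whole span of the printed promoter if the starts coincide. On the same condition, its summit was farther upstream than the TTCCCGC match. Per kb the Rictor region had 127 tags, also the highest of the 9.

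Tsc2 codes for tuberin, which with Tsc1 holds Rheb inactive. Its peak (ENSMUSG00000002496) had its window on chromosome 17 from 24769297 to 24769597 and was named for both Tsc2 and Nthl1 (ENSMUSG00000041429). The Tsc2 TSS lay within the window, and the Nthl1 TSS 29 bp beyond its edge, so the summit was 179 bp upstream of the authors' Nthl1 start. The peak cannot be given to either gene alone. It held the fewest tags of the 9 peaks, 66 (51.0 to 84.0), in the shortest region, 1163 bp. Its fold was nevertheless 6.83, near that of Insr with 179 tags, and its false discovery rate was 2.42%. By fold it was above 72.2% of all peaks, but by tags above only 7.89%.

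Rheb, the GTPase that activates mTORC1, had 2 peaks inside the gene and none at its promoter (ENSMUSG00000028945). Their windows lay on chromosome 5 from 24314863 to 24315163 and from 24323841 to 24324141, at 33279 and 24301 bp from the TSS and 8978 bp from each other. The farther peak held 164 tags (140 to 191) with a fold of 4.35 and a false discovery rate of 2.56%. The nearer peak held 146 tags (123 to 172) with a fold of 4.22 and a rate of 0.64%. The tag intervals of the pair overlap. For each of them the other Rheb peak was the nearest in the list, and 1 serial number of the caller between them was not listed. Rheb was thus the only gene of the 9 with more than 1 listed peak. Each of the 6 promoter genes had 1 listed peak in all, as did 82.9% of all protein-coding genes with a promoter peak.

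**Figure D2:**
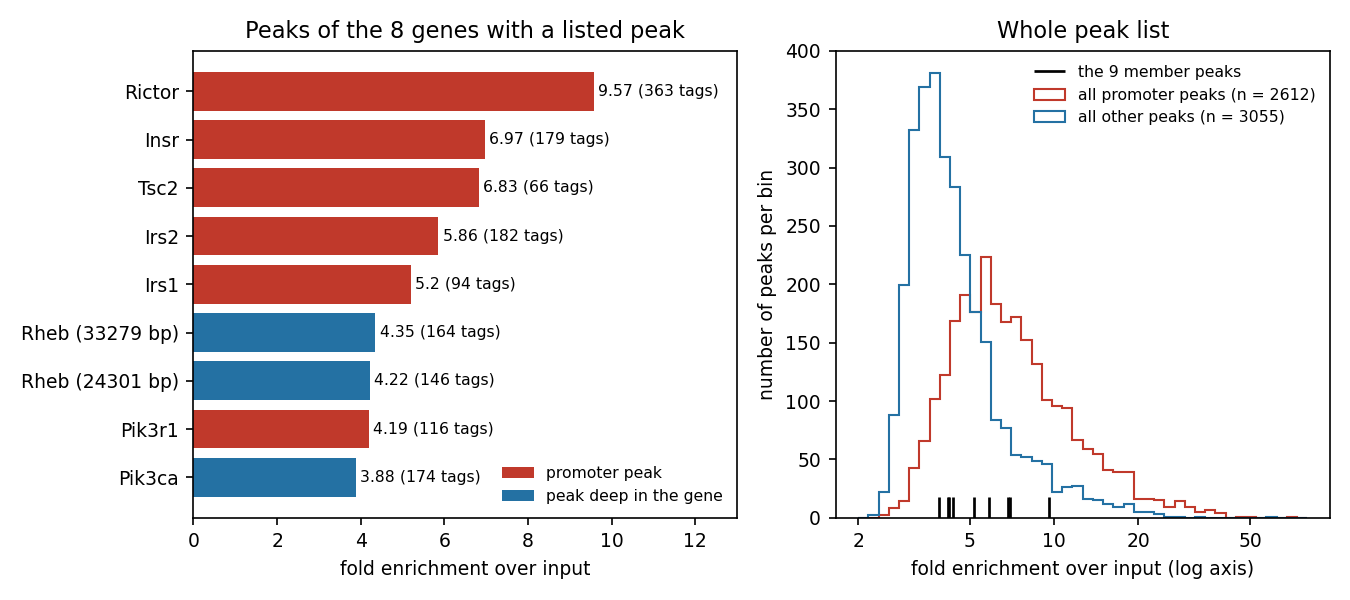
Left, fold enrichment over input of each of the 9 peaks, with tags beside the bars, for promoter peaks (red) and peaks deep in the gene (blue; Rheb by distance to the TSS). Right, number of peaks per bin of fold for all promoter peaks and all other peaks, with the 9 peaks as black ticks; they lie between 3.88 and 9.57, within the bulk of the list.

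Ordered by fold, the peaks ran from Rictor (9.57) over Insr (6.97), Tsc2 (6.83), Irs2 (5.86), Irs1 (5.2), the Rheb pair (4.35 and 4.22) and Pik3r1 (4.19) to Pik3ca (3.88). Folds have no error here, so the order of neighbours such as Insr and Tsc2, or Rheb and Pik3r1, has no support beyond the values. By tags the order was different, with Rictor first and then Irs2, Insr, Pik3ca and the Rheb pair, and with Pik3r1, Irs1 and Tsc2 last. The intervals of the tag counts of Irs2, Insr, Pik3ca and both Rheb peaks overlap one another. The promoter peak of Pik3r1 therefore had a fold no higher than those deep in Rheb. The false discovery rate did not follow the caller's p-value among these peaks. Rictor, with the highest score at 561.83, had a rate of 0.2%, while Irs2, with a score of 264.89, had 0.08%.

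**Figure D3:**
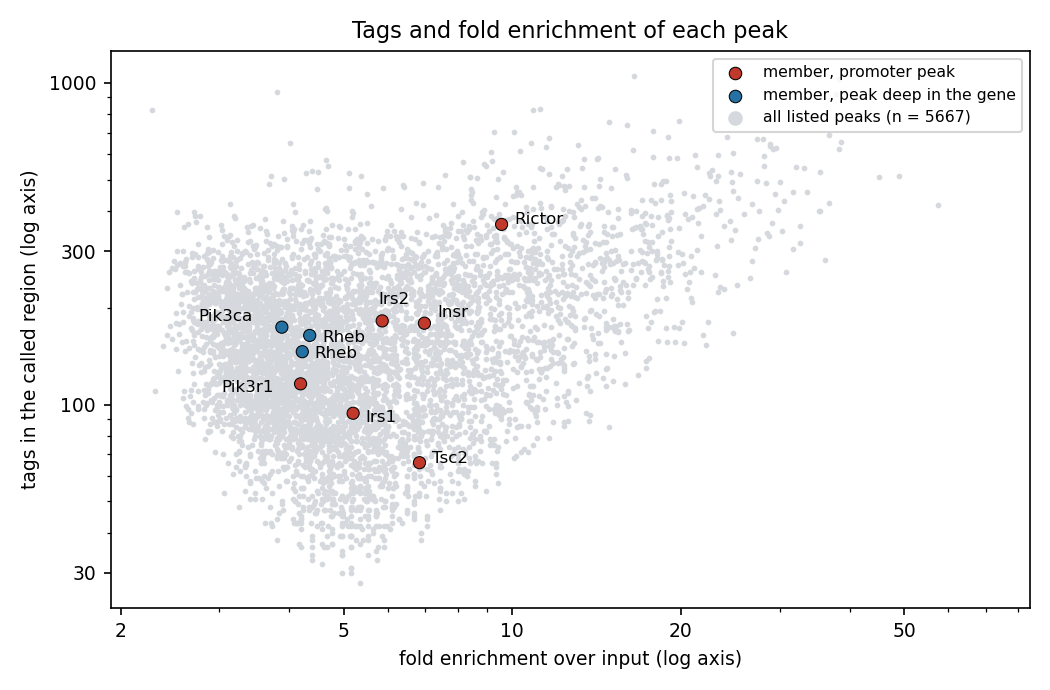
Tags in the called region against fold enrichment over input, both on log axes, for the 9 peaks (red, promoter; blue, deep in the gene) and all 5667 listed peaks (grey). Rictor stands apart at 363 tags and a fold of 9.57, and Tsc2 has the fewest tags, 66, at a fold of 6.83.

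A further 113 genes of the insulin, mTOR and linked Ras pathways were listed by role. Of these, 23 (20.4%) had a promoter peak, 25 had a peak elsewhere only and 65 had none, beside the 13.1% and 24.7% given above for promoter and any peaks. The median fold of the 23 was 6.38. Their windows held the TSS in 13 of 23 genes, and 4 of 23 had a window edge at least 250 bp away.

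The counts by role below stand beside the same shares of all protein-coding genes, 13.1% for promoter peaks and 24.7% for any peak. At the top of the pathway, none of 7 other ligand and receptor genes had a promoter peak. The only 1 with any was Igf2r, with a peak past its end, also named for a neighbouring gene, and a fold of 4.89. Of 12 adaptors 3 did, among them Grb2, which links receptors to Ras, with a fold of 12.85 and 223 tags, and the ubiquitin ligase Cbl with 5.86 and 211 tags. The fold of Cbl equalled that of Irs2. Of 9 other genes of phosphatidylinositol 3-kinases only Pik3c3, the lipid kinase of autophagy, had a promoter peak, with a fold of 15.07 and 220 tags. This was the highest fold at a promoter among the 113 genes. None of the 6 other kinases below phosphatidylinositol 3-kinase had a promoter peak, but 4 of the 6 (66.7%) had a listed peak elsewhere. Of 9 phosphatases 3 had promoter peaks, each with a fold below the median of 6.53 over all protein-coding genes with a promoter peak: Inpp5k with a fold of 5.17, the insulin receptor phosphatase Ptpn1 with 4.42 and Inppl1, the gene of SHIP2, with 4.13.

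Around mTOR, 4 of 10 other complex subunits and assembly factors had promoter peaks. Telo2, an assembly factor of mTOR complexes, had a fold of 7.56, the kinase gene Mtor itself 4.9 with 212 tags and Deptor, an inhibitory subunit, 4.59 at a promoter shared with Gm9920. Mapkap1, the gene of the mTORC2 subunit Sin1, had 3.74 with a false discovery rate of 8.05%. The fold at Rictor was above all 4. Tsc1, Tbc1d7, Rhebl1 and Ddit4 had no listed peak. Of Tsc1, Tsc2 and Tbc1d7, which form the TSC complex, Tsc2 alone was named for a peak, which it shares with Nthl1. In the branch that reports amino acids to mTORC1, 5 of 21 genes had promoter peaks. Lamtor2 had a fold of 10.18 at a promoter shared with Ubqln4, Lamtor5, listed as Hbxip, 7.13, and Lamtor3 4.7 with 312 tags. These are subunits of the Ragulator scaffold on lysosomes. The lysosomal amino acid sensor Slc38a9 had 6.93 and Nprl3, a subunit of GATOR1, 5.83.

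Below the kinases, 2 of 16 targets of Akt or mTOR had promoter peaks. They were the transcription factor gene Foxo1 with a fold of 7.84 and the death promoter Bad with 6.38, shared with Gpr137. The nearer edge of the Bad window lay 518 bp inside the gene, and the authors class this peak as inside the gene. Of 8 inhibitors of insulin signalling and linked kinases 3 had promoter peaks. Socs3, a suppressor of cytokine and insulin receptor signals, had 11.44, the protein kinase C gene Prkce 9.38 and Stk11, the gene of LKB1, 5.64. In the Ras branch 2 of 11 did, among them Mapk3, the gene of ERK1, with 8.47. Away from promoters, the 10 genes of highest fold were Sos2 (12.72, 70389 bp inside the gene), Inpp5k (8.13), Pik3r2 (8.01), Inppl1 (7.44), Map2k2 (6.48), Sgk1 (5.57), Prkce (5.28), Sesn2 (5.15), Pdpk1 (5.13) and Grb2 (5.1). Of these peaks, those of Inpp5k, Pik3r2, Inppl1, Map2k2 and Pdpk1 were also named for a neighbouring gene.

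**Figure D4:**
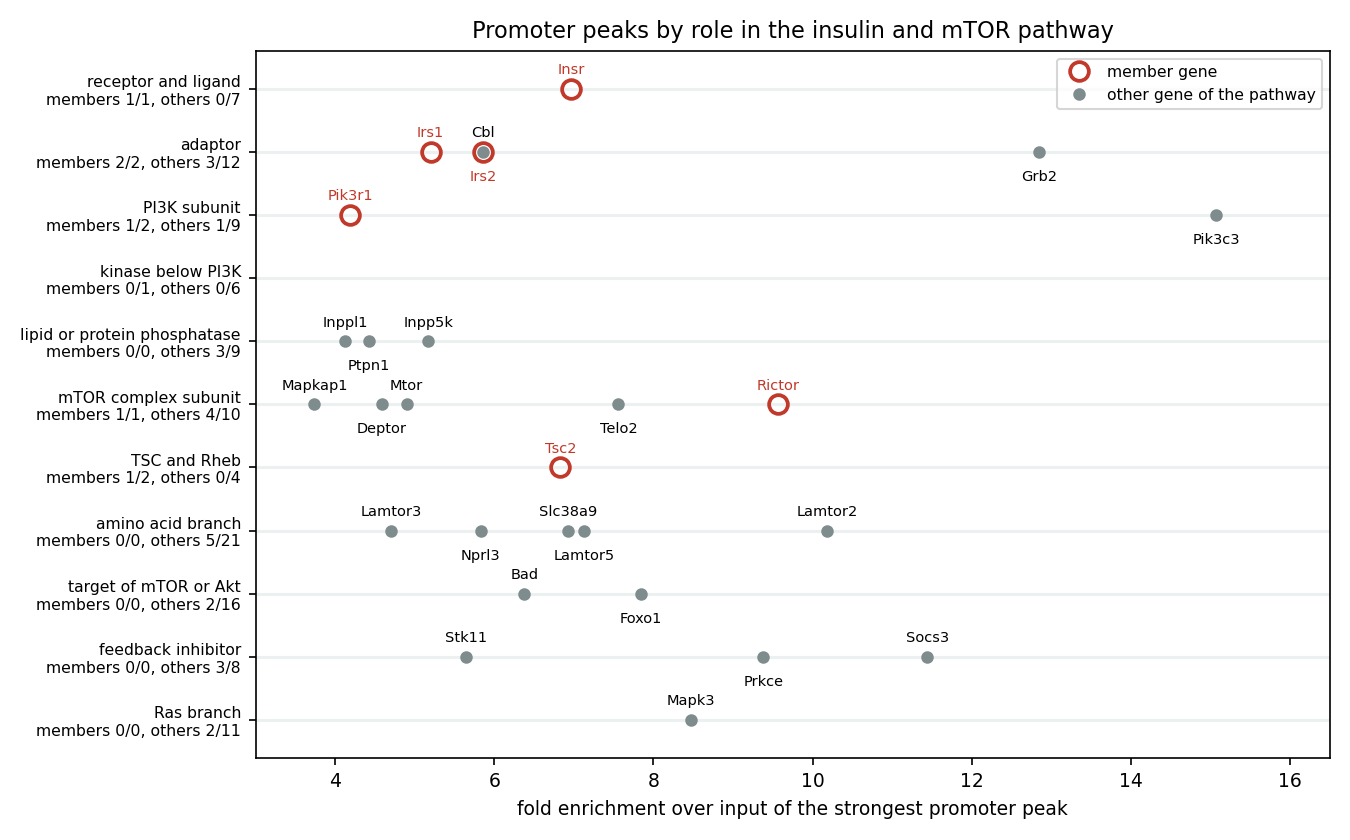
Fold enrichment over input of the strongest promoter peak for each gene with one, by role, for the 9 member genes (red rings) and 113 other genes of the pathway (grey); the row labels count genes with a promoter peak, of which 2 grey ones are not drawn. The rings lie between 4.19 and 9.57. The row of kinases below phosphatidylinositol 3-kinase (PI3K) is empty, though 4 of its 6 grey genes had a listed peak elsewhere.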

How the data were processed

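Peaks of E2F1 ChIP over input were called by the authors. Reads were aligned with Bowtie2 2.1.0 to mm9 (NCBIM37), per the submitters' processing notes. Column names point to the peak caller MACS, per the file headers. Its version, its settings and the pooling of replicates are not stated there. The deposited file gives for each peak a whole-number tag count, the pileup signal height, the ratio (fold) of ChIP over the background expected from input, a false discovery rate as a percent, and a score (the negative log10 of MACS' p-value times 10), all per the file headers. A further deposited column, FERR, has no stated meaning and was not used. Library depth is unknown, and Poisson intervals (95%) cover counting error only.

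The authors' gene assignment and TSS distances were used, except for entries past a gene end, where the distance is not to the TSS. A peak counts as a promoter peak where the edge of its 301 bp window lies within 850 bp of the TSS. Called regions were placed along the gene with the strand from RefSeq; of 494 genes with 2 or more peaks usable for this check, 99.4% gave the same TSS within 2 bp. Of 5587 symbols 98.3% matched a RefSeq table (GRCm38.p6), whose 21900 protein-coding genes are the background; Hbxip and Hras1 were matched as older symbols. Named are all 9 genes, genes sharing their peaks, pathway genes with a promoter peak, and the 10 with the highest folds elsewhere, plus others where the text says so; a few genes that this rule names are not reported here. The 9 genes and the pathway list were chosen with earlier results of these data known. The motif search was tested on made-up sequences. Alternatives were promoter distance, stricter peak thresholds, the closest gene only and a shorter motif. Analyses ran in Python 3.11.15 with pandas 2.3.3.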

Additional observations from a re-analysis of the deposited data

How the results depend on the processing

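Of the 9 genes, 6 had a promoter peak, and 6 also did with a limit of 5000 bp, by the class the authors assign and when each peak counts for its closest gene alone. The count was 3 with a limit of 500 bp (Irs1, Rictor and Tsc2, against 11.5% of protein-coding genes), since the summits at Insr, Irs2 and Pik3r1 lie farther out. It was 3 (Insr, Irs2 and Rictor) for the 2833 peaks of lowest p, at 9.35% of protein-coding genes, and 3 with the same names for a false discovery rate of at most 1%, at 8.01%. Among the 1416 peaks of highest fold it was 1, Rictor, against 5.47%. For any listed peak the count of 8 became 5, 1 and 4 for the lowest p, the highest fold and the lower false discovery rate, against 14.4%, 7.51% and 11.7%. Among the 113 pathway genes, 23 with a promoter peak became 9 among those of highest fold, and 48 with any peak became 25, 13 and 19 under the same 3 thresholds. Other settings left these pathway counts within 1.5 times. Set among promoter peaks in place of all peaks, the percentile of the fold was 55.6 for Insr, 30.3 for Irs1, 41.5 for Irs2, 12.6 for Pik3r1, 76.5 for Rictor and 53.9 for Tsc2. The E2F element in its shorter form was found in 2 genes in place of 1. No paired analysis was possible because the list is not split by replicate. Without library depths or replicates, the precision of folds is unknown.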
